A study of Mus musculus with 2 samples.

Results

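The genes described here encode the ephrin, semaphorin, Slit and netrin guidance cues and their receptors. The rule that chose them reads names and no measured value, but it was set with earlier results of these data known. The array's gene name had to begin with Epha, Ephb, Efna, Efnb, Sema, Plxn, Slit, Robo, Ntn or Unc5, or to be Nrp1, Nrp2 or Dcc. This rule took 73 of the 31791 gene names on the array, on 97 probes. Unc50 and Unc5cl match by name alone and encode no netrin receptor, which left 71 guidance genes on 95 probes. The comparison asked whether their transcripts differed in the embryonic ureter between RNA labelled Gata2cKO and RNA labelled control.

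Ureters of NMRI mouse embryos at E14.5 were compared on 2 dual-colour Agilent arrays with exchanged dyes. The RNA labelled Gata2cKO came from embryos of the genotype Tbx18(cre/+);Gata2(fl/fl). They had a Tbx18 allele that makes Cre recombinase and both copies of Gata2, a zinc finger transcription factor gene, flanked by loxP sites. Control embryos were Tbx18(+/+);Gata2(fl/?), with no Cre allele, at least 1 loxP-flanked Gata2 copy, and a state of the other copy that is written only as a question mark. Tbx18 is known from the mesenchyme around the ureter, so recombination is limited to cells with a history of Tbx18 expression and the other cells of the organ keep Gata2. The Cre allele also takes the place of a Tbx18 copy, which the controls do not share. Array 1 carried female RNA with Gata2cKO in Alexa Fluor 647, and array 2 carried male RNA with Gata2cKO in Alexa Fluor 555, so the effects of sex and dye cannot be told apart. The labels do not say how many embryos were pooled for an RNA or whether the arrays came from separate litters. The p-values rest only on the spread between these arrays, that of each gene drawn toward the spread typical of all genes tested.

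Values are log2 ratios of Gata2cKO over control, so that 1 is a doubling, and each is given for array 1 and then array 2. Between them the RNAs gave median spot signals of 428.1 to 754 intensity units, the 647 channel being the brighter on both arrays. The Gata2 probe gave 0.33 and 0.54 (mean 0.44 ± 0.15 SD, n = 2 arrays, adjusted p = 0.41), and Tbx18 gave 0.65 and 0.15 (0.40 ± 0.36, adjusted p = 0.66). The Gata2 signal was thus not lower in the RNA labelled Gata2cKO. The sources used here do not give the place of that probe relative to the deleted part of the gene, so it does not check the labels, and every direction below rests on them. Ureter markers were measured in these RNAs, with all 15 urothelium, all 10 ureteric mesenchyme and 9 of 10 smooth muscle markers well above background.

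Guidance cues steer growing axons, migrating cells and sprouting vessels by attracting or repelling cells that carry the matching receptor. Ephrins stay on the cell surface and signal to Eph receptor tyrosine kinases on a neighbouring cell, and also back into the cell that carries them. Semaphorins act through plexins, the secreted class 3 members mostly with a neuropilin as co-receptor, while Slits bind Robo receptors and netrins bind Dcc and Unc5 receptors. In the urinary tract, Slit2 and Robo2 are known for restricting the site at which the ureteric bud grows out.

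The probes behind the largest differences are shown by the first 30 of their 60 bases, with position and strand as the array annotation gives them on mm9. Exons and untranslated regions are not assigned, as no gene annotation of that build was used. Epha8, Plxna2 and Plxna4 each rest on the probe shown, and both Sema3c probes are given because they do not overlap and were measured separately. The last is the single detected probe that carries the name Dcc, with the GAA repeat in capitals.
Epha8, chr4:136485335-136485394, minus strand: tgtggttcccatcctgagtctggaatcact
Sema3c, brighter probe, chr5:17235981-17236040, plus strand: ccctgtgtagagaaagcaaactagatgtag
Sema3c, other probe, chr5:17234078-17234137, plus strand: acgtaaagtcaagagtgactcataaagagc
Plxna2, chr1:196642958-196643017, plus strand: catgtacctattgtaaatatgaaactccta
Plxna4, chr6:32094602-32094661, minus strand: ctcaccttgaataccaaccttttgaaagaa
Dcc, repeat probe, chr7:68417162-68417221, minus strand: gaaaaagatGAAGAAGAAGAAGAAGAAGAA

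Of the 71 guidance genes, 63 were measured, that is, had a probe of their own well above background on both arrays in at least 1 group. Over the array, 64.3% of 31870 gene names, counted after renaming by accession, passed this filter. All 82 guidance probes that passed did so in both groups on both arrays, so none was kept through the group in which it was the brighter. The 8 genes not measured were Dcc, Epha6, Epha10, Robo3, Ntn4, Ntn5, Ntng2 and Unc5d. For Dcc, the netrin receptor a reader would look for first, its other probes were not well above background on either array. The repeat probe has 51 of 60 bases in the GAA repeat and also lists an accession of Gcm1, so its ratios of -0.096 and 0.91 are not counted as a measurement of Dcc.

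No guidance gene passed an adjusted p of 0.05 in either direction (limma, adjusted over all 20506 genes tested). Over all genes, 9 were called higher (0.0439%) and 9 lower (0.0439%). At an unadjusted p under 0.05, 9 of the 63 guidance genes were higher, where 3.75% of all genes were, and 3 were lower, where 3.41% of all genes were. These 12 became 4 with median centring of the arrays, which also took the count over all genes from 1470 to 492. By the brightest probe of each gene, Epha8 alone was at least 1.5-fold higher on both arrays, a size that 0.273% of all genes reached, and the dimmer probe of Sema3c also passed it.

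The guidance genes were higher on both arrays in 19 cases and lower on both in 10, against 27% and 26.2% of all genes, and 34 had opposite signs, as did 46.8% of all genes. Of these 34, 19 were brighter in the 647 dye on both arrays and 15 in the 555 dye, beside 4724 and 4877 over all genes. The median log2 ratio of the 63 was 0.028 (0.092 on array 1 and 0.043 on array 2), beside 0.0028 over all genes, and 45 of them had a mean within 0.2 of 0. With the arrays' ratios centred on the median in place of the loess curve, 12 guidance genes were higher on both, 11 lower and 40 of opposite signs. The shares over all genes with that setting are not given here.

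**Figure D1:**
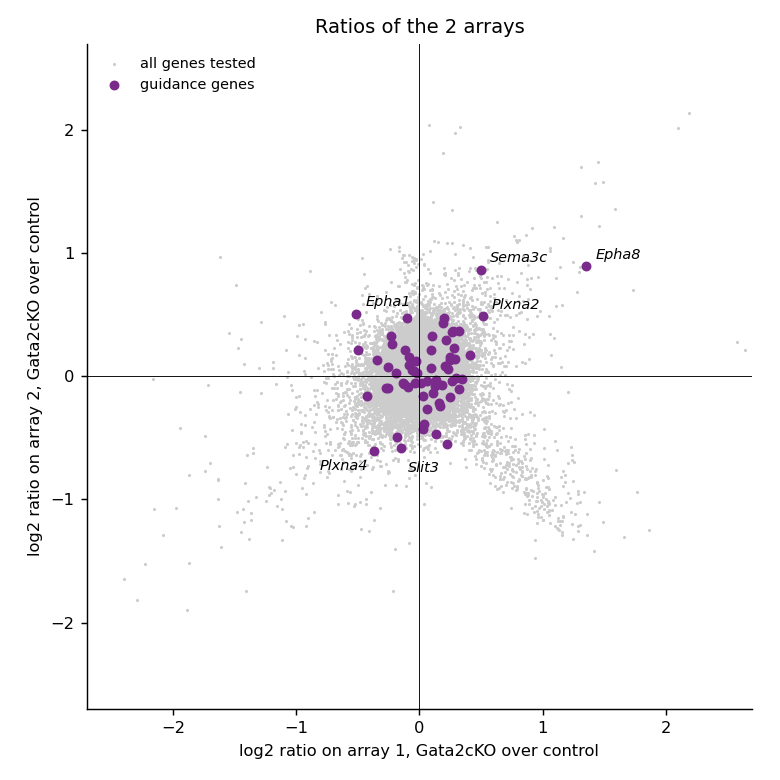
Log2 ratio of Gata2cKO over control on array 1 (x axis) against array 2 (y axis) for all 20506 genes tested (grey) and the 63 guidance genes (purple). Epha8 stands apart at 1.35 and 0.89, Sema3c and Plxna2 lie in the same quadrant, and 34 guidance genes lie in the quadrants of opposite sign.

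Among the ligands of the ephrin system, Efna5, a lipid-anchored ligand of A-type receptors, had log2 ratios of 0.28 and 0.37 (0.32 ± 0.064 SD, n = 2 arrays, adjusted p = 0.58). Efnb2, the transmembrane ligand known as an arterial marker, had 0.29 and 0.14. Both were thus higher in the RNA labelled Gata2cKO in each sex, without passing the test. Efnb1, a transmembrane ligand of B-type receptors, had -0.23 and 0.26, with the sign turning between the arrays. Efna3 was lower by a small amount on both, at -0.096 and -0.088, and its other probe gave -0.19 and -0.27. The remaining ephrins, Efna1, Efna2, Efna4 and Efnb3, had opposite signs and means between -0.17 and -0.022, each of them higher on array 1 and lower on array 2. All 8 ephrins were measured, with a median log2 ratio of -0.029 over the family (0.086 on array 1 and -0.071 on array 2).

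Epha8, a receptor for A-type ephrins, had the largest difference of all guidance genes. Its normalized log2 signal was 9.66 in the control RNA and 11.01 in the Gata2cKO RNA of array 1, and 10.17 and 11.06 on array 2. Both Gata2cKO signals lay above both control signals, and the control signals were farther apart than the Gata2cKO signals. The log2 ratios were 1.35 and 0.89 (mean 1.12 ± 0.33 SD, 95% interval 0.77 to 1.48, a 2.18-fold difference), with an adjusted p of 0.088 in limma. With the signals as processed by the scanner software the adjusted p was 0.019, and it was 0.00043 when the prior variance followed brightness and was fitted robustly. It was 0.9999 with median centring of the arrays, 0.12 without background correction and 0.16 from the authors' deposited table, and over all alternatives with a test it ran from 0.00043 to 0.9999. Epha8 has 1 probe on the array, so no other probe bears on this value. The share of all genes whose Gata2cKO signals both lie on 1 side of both control signals was not counted, for Epha8 or the genes below.

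Genes next to Epha8 did not share its direction. Within 250 kb of its probe on chromosome 4, C1qa had log2 ratios of -0.64 and -0.54, C1qb -0.37 and -0.46 and C1qc -0.38 and -0.50. These encode the chains of complement C1q, made by macrophages, and belong to a macrophage list of which all 8 genes were lower on both arrays. Zbtb40, on the other side, had -0.038 and 0.093.

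The ephrin receptors other than Epha8 differed by less. Ephb1 had 0.41 and 0.17 (0.29 ± 0.17, adjusted p = 0.69) and Ephb4, the receptor paired with Efnb2 at the border of arteries and veins, had 0.097 and 0.067, while its other probe was lower on both arrays. Epha7 was the lowest of the family at -0.43 and -0.16 (-0.29 ± 0.19, adjusted p = 0.70). Its log2 signals were 14.34 and 14.15 in the controls and 13.91 and 13.99 in the Gata2cKO RNAs, so the groups did not overlap. The gene has 3 probes, and the other 2 gave -0.41 and -0.12, and -0.52 and -0.099. All of them were thus lower on both arrays, with the larger difference on array 1 each time.

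Ephb2, another B-type receptor, had -0.13 and -0.059. Epha4, a receptor that binds ephrins of both types, had 0.26 and -0.040, so its direction differed between the arrays. The widest disagreement in the family was in Epha1, at -0.51 and 0.51, which cancels in the mean. The other measured receptors, Epha2, Epha3, Epha5, Ephb3 and Ephb6, had means between -0.079 and 0.16. In all, 12 of the 14 ephrin receptors were measured, 4 of them higher on both arrays, 2 lower and 6 with opposite signs, with a median of 0.097 (0.17 and 0.029). That median was 0.0032 when all probes of a gene were averaged in place of taking the brightest.

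**Figure D2:**
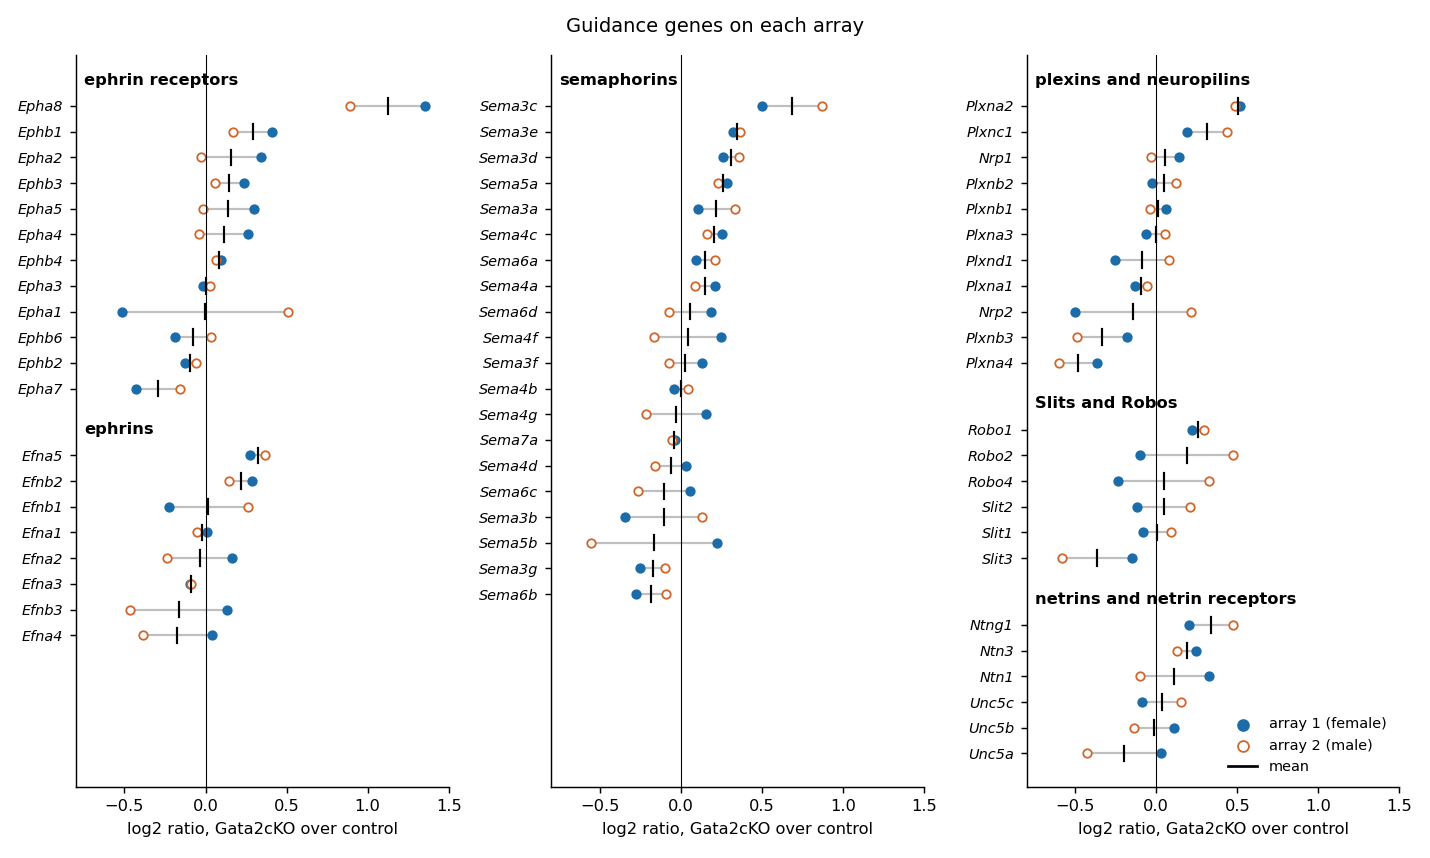
Log2 ratio of Gata2cKO over control (x axis) for each measured guidance gene (rows, by family and ordered by mean), with array 1 as filled points, array 2 as open points and the mean as a black tick. In 34 genes the points straddle 0, with Epha8 at 1.35 and 0.89 and Sema3c at 0.50 and 0.87 to the right.

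All 20 semaphorin genes were measured, and the 3 highest mean ratios were of class 3, the secreted members. Of the 7 class 3 genes, 4 were higher on both arrays, 1 was lower and 2 had opposite signs, with a median log2 ratio of 0.22 (0.13 and 0.33). The 13 other semaphorins had 4, 2 and 7 in the same order and a median near 0 (0.16 and -0.071). This division by class was made after the values had been seen and was given no test.

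Sema3c, a secreted cue that acts through neuropilins and plexins and is known from heart outflow and lung development, had the largest ratio of the family. Its log2 signals were 14.76 and 14.71 in the control RNAs and 15.26 and 15.58 in the Gata2cKO RNAs. The controls lay close together and both Gata2cKO values were above them. The log2 ratios were 0.50 and 0.87 (0.68 ± 0.26 SD, 95% interval 0.36 to 1.01, a 1.61-fold difference, adjusted p = 0.21). The other Sema3c probe gave 0.64 and 0.61, so the 4 ratios of this gene were all positive and the larger difference on array 2 was not shared by both probes. Over the alternatives the adjusted p ran from 0.019 with the trended and robust prior, where it passed, to 0.9999 with median centring, and it was 0.85 from the authors' deposited table.

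Sema3e, which signals through Plxnd1 without a neuropilin, had 0.32 and 0.37 (0.34 ± 0.031, adjusted p = 0.53). Sema3a, the founding repulsive cue of this class, had 0.11 and 0.33 (0.22 ± 0.16, adjusted p = 0.77), and its other probe gave 0.081 and 0.20. Sema3d had 0.26 and 0.36 (0.31 ± 0.068, adjusted p = 0.61). These 3 were higher in both sexes and did not pass the test. In the authors' deposited table, Sema3a stands at 0.87 and -0.020 and Sema3d at 0.57 and -0.055, so neither is higher on both arrays there.

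Sema3g was the class 3 gene that was lower on both arrays, at -0.25 and -0.097. Of the membrane-bound semaphorins, Sema6b had -0.28 and -0.092, while Sema5a had 0.28 and 0.23 and Sema4c 0.25 and 0.16. Sema5b had the widest gap of the family, 0.22 and -0.55, and its other probe had the same pair of signs. Sema3b, Sema3f, Sema4a, Sema4b, Sema4d, Sema4f, Sema4g, Sema6a, Sema6c and Sema6d had means between -0.11 and 0.15. The semaphorin family as a whole had 8 genes higher on both arrays, 3 lower and 9 with opposite signs, with a median of 0.035 (0.14 and -0.0048).

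The 4 class 3 genes that were higher on both arrays lie in 1 stretch of chromosome 5, from the Sema3d to the Sema3c probe (chr5:12586981-17236040 on mm9, 4.65 Mb). This stretch was marked out after the values had been seen and carries no test. In the authors' deposited table, Sema3d and Sema3a have opposite signs. Between the 4 genes lie 14 other tested genes, of which 11 were higher on both arrays, 2 lower and 1 of opposite signs, with a median of 0.25. Over the whole of chromosome 5, 27.8% of 1247 tested genes were higher on both, with a median of 0.0022. Hgf, the ligand of the receptor Met, had 0.30 and 0.29, and Cacna2d1, a calcium channel subunit, had 0.12 and 0.36. Gm4751 and Pclo, a protein of the presynaptic zone, were the ones lower on both, Pclo with -0.063 and -0.092. Several of the 14 are Speer genes and related clones, near-identical copies whose probes may read each other's transcripts, so these genes are not independent points.

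**Figure D3:**
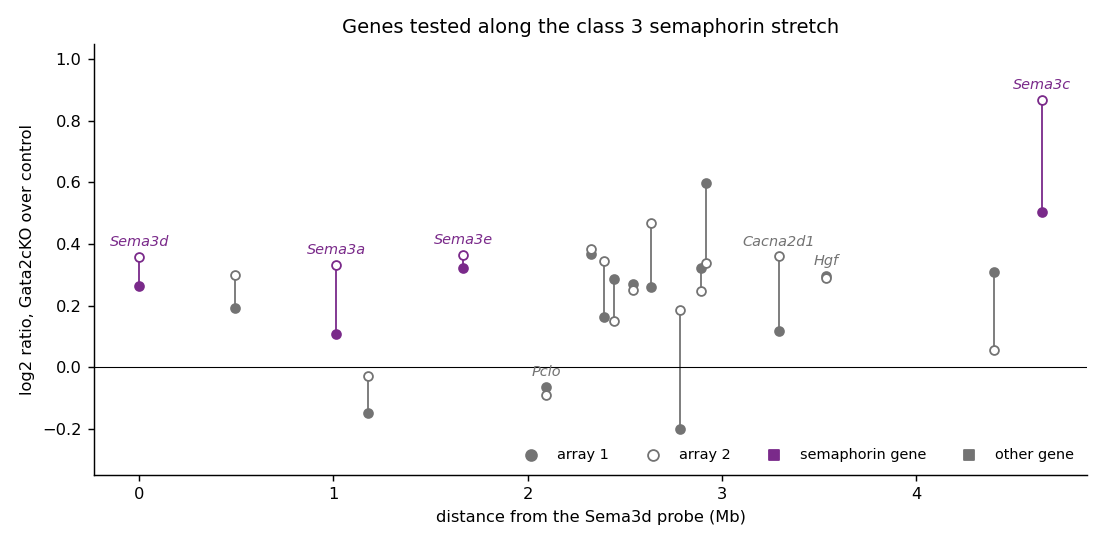
Log2 ratio of Gata2cKO over control (y axis) of the 18 tested genes in a 4.65 Mb stretch of chromosome 5, by distance of the probe from the Sema3d probe in Mb (x axis), with array 1 filled, array 2 open, semaphorin genes in purple and other genes in grey. Sema3d, Sema3a, Sema3e and Sema3c lie above 0 on both arrays, as do 11 of the 14 other genes.

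Among the semaphorin receptors, Plxna2, a plexin that pairs with neuropilins and also binds class 6 semaphorins, had the highest ratio, with log2 signals of 13.15 and 13.22 in the controls and 13.67 and 13.71 in the Gata2cKO RNAs. The groups did not overlap and the arrays nearly coincided, with log2 ratios of 0.52 and 0.49 (0.50 ± 0.020 SD, 95% interval 0.24 to 0.76, a 1.42-fold difference, adjusted p = 0.26). Over the alternatives the adjusted p ran from 0.024 with the trended and robust prior, where it passed, to 0.9999 with median centring. Plxnc1, the receptor of Sema7a, had 0.19 and 0.43 (0.31 ± 0.17, adjusted p = 0.66), and its other probe gave 0.36 and 0.060, while Sema7a itself had -0.038 and -0.052.

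Plxna4, a plexin best known from sensory and sympathetic neurons, was the guidance gene with the lowest ratio. Its log2 signals were 10.49 and 10.53 in the controls and 10.13 and 9.93 in the Gata2cKO RNAs, again without overlap. The log2 ratios were -0.37 and -0.60 (-0.49 ± 0.17 SD, 95% interval -0.77 to -0.20, 1.40-fold lower in Gata2cKO, adjusted p = 0.35). In the authors' deposited table, Plxna4 stands at 0.41 on array 1 and -0.45 on array 2, so the direction on array 1 differs between the sources. Plxnb3 had -0.18 and -0.49 (-0.34 ± 0.22, adjusted p = 0.65).

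Markers of neurons and glia were mostly lower as well. Their median was -0.79 on array 1 and -0.56 on array 2. Of the 18 on the list, all measured, 17 were lower on both arrays, 1 of them past the test, and the median of the list was -0.76. Their summed normalized intensity was 70254 and 54316 in the control RNAs and 36841 and 36008 in the Gata2cKO RNAs. Smooth muscle markers were lower on both arrays in 8 of 9 (summed 77203 and 81662 in controls against 59072 and 55845 in Gata2cKO), and macrophage markers in 8 of 8 (39678 and 37885 against 29854 and 30977). Urothelium markers were higher on both in 10 of 15 and lower in 0 (284947 and 339105 against 330098 and 365691), and ureteric mesenchyme markers higher in 6 of 10 and lower in 1 (197400 and 188903 against 219750 and 234872). The part of these cells in the higher or lower guidance genes was not tested. In RNA of whole ureters, fewer cells of a type and less RNA per cell cannot be told apart.

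The neuropilins did not move together. Nrp1, which binds Sema3a and vascular endothelial growth factor, had 0.14 and -0.032. Nrp2, a receptor of Sema3f and Sema3c, had -0.50 and 0.22, while its other probe was lower on both arrays at -0.25 and -0.15. Plxnd1, the receptor of Sema3e in vessels, had -0.25 and 0.078. The other plexins, Plxna1, Plxna3, Plxnb1 and Plxnb2, had means between -0.094 and 0.048. Over the 11 plexins and neuropilins, all measured, 2 were higher on both arrays, 3 lower and 6 of opposite signs, with a median of -0.0037 (-0.061 and 0.054). Endothelial markers, beside which these vessel receptors can be read, were lower on both arrays in 7 of 12 and higher in 1 (summed 123899 and 116483 in controls, 108539 and 114803 in Gata2cKO), and their part was not tested.

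**Figure D4:**
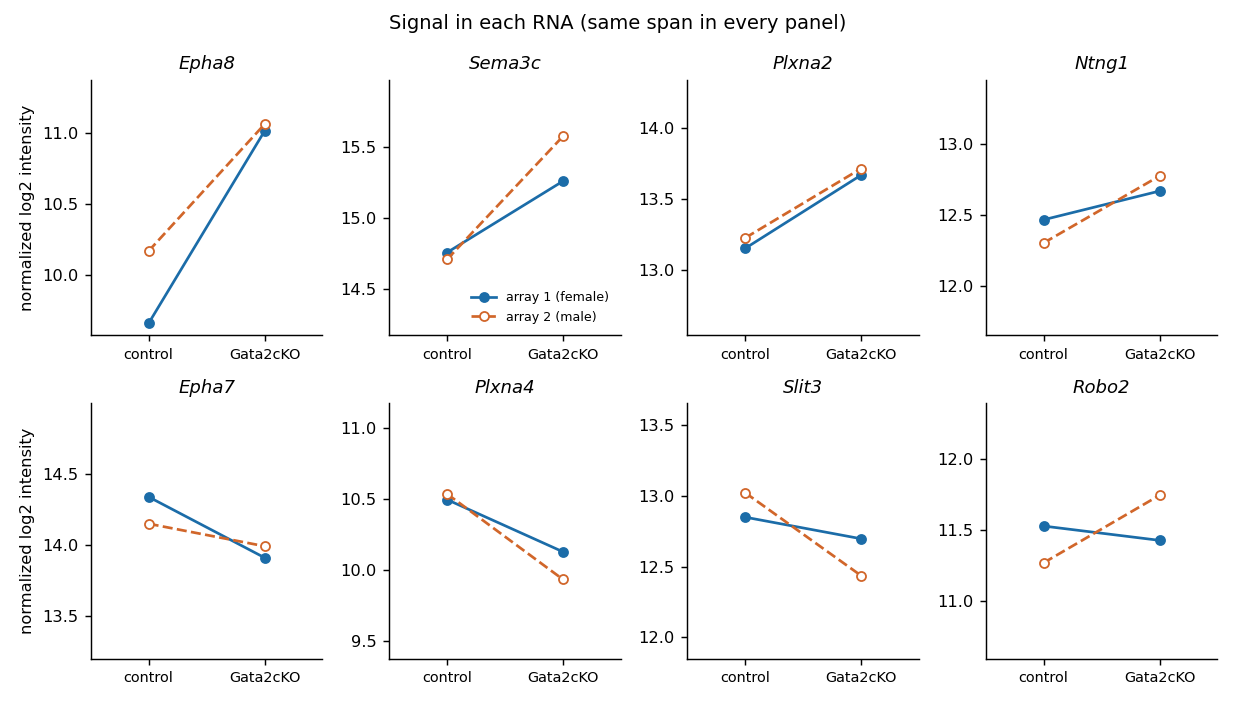
Normalized log2 intensity (y axis, the same span in each panel) of 8 guidance genes in the control and Gata2cKO RNA (x axis), with array 1 as filled points and a solid line, and array 2 as open points and a dashed line. The Gata2cKO RNAs lie above both controls for Epha8, Sema3c, Plxna2 and Ntng1 and below them for Epha7, Plxna4 and Slit3, while for Robo2 the lines run in opposite directions. These 8 genes were picked for display, and the share of all genes that separate in this way was not counted.

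Among Slits and Robos, Slit3, a secreted repellent, was lower on both arrays. Its log2 signals were 12.85 and 13.02 in the controls and 12.70 and 12.44 in the Gata2cKO RNAs, and the log2 ratios were -0.15 and -0.58 (-0.37 ± 0.31 SD, adjusted p = 0.66). The groups did not overlap, but the ratio on array 2 was far larger than that on array 1. In the authors' deposited table, Slit3 stands at -0.21 on array 1 and 0.029 on array 2, so it is not lower on both there. Slit2 had -0.12 and 0.21, and Slit1 -0.081 and 0.091.

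Robo1, a Slit receptor, had 0.22 and 0.30 (0.26 ± 0.054, adjusted p = 0.70). The authors' deposited table has Robo1 at 0.79 and -0.12, so with opposite signs. Robo2, the receptor known for its part in placing the ureteric bud, had log2 signals of 11.53 and 11.27 in the controls and 11.43 and 11.75 in the Gata2cKO RNAs. These overlap, and the log2 ratios of -0.10 and 0.48 (0.19 ± 0.41, 95% interval -0.21 to 0.58) point opposite ways. The other Robo2 probe gave the same pair of signs, at -0.22 and 0.28. Robo4, found mainly in endothelium, had -0.23 and 0.33. With 6 of 7 genes measured, 1 was higher on both arrays, 1 lower and 4 of opposite signs, and in these 4 the RNA in the 555 dye was the brighter, that is, the female control RNA and the male Gata2cKO RNA, which over all genes held for 4877 of 9601 with opposite signs. The family's median was 0.045, from -0.11 on array 1 and 0.25 on array 2.

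Of the 11 netrin and netrin receptor genes, 6 were measured. Ntng1, which encodes a lipid-anchored relative of the netrins that does not bind Dcc, had log2 signals of 12.47 and 12.30 in the controls and 12.67 and 12.77 in the Gata2cKO RNAs. Its log2 ratios were 0.20 and 0.47 (0.34 ± 0.19 SD, adjusted p = 0.63). The other 2 probes gave 0.26 and 0.22, and 0.44 and 0.33, so all 3 probes of the gene were higher on both arrays. Ntn3, a secreted netrin, had 0.25 and 0.13. Ntn1, the founding netrin, had 0.32 and -0.10, and its other probe was lower on both.

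The netrin receptors of the Unc5 family, which mediate repulsion, had no common direction. Unc5b, known from vessels, had 0.11 and -0.14. Unc5c had -0.087 and 0.16, although its other probe was higher on both arrays at 0.30 and 0.22. Unc5a had 0.031 and -0.43. In total 2 genes of the netrin family were higher on both arrays, none lower and 4 of opposite signs, with a median of 0.072 (0.16 and 0.013).

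Several probes allowed a check within 16 of the measured genes. Every probe was higher on both arrays in 4 of them (Ntng1, Plxnc1, Sema3a and Sema3c), and every probe was lower on both in 2 (Efna3 and Epha7). The sign of the mean was shared by all probes in 12 genes, the exceptions being Epha5, Ephb4, Ntn1 and Sema6d. Of the guidance probes, 5 hold a repeat of 20 bases or more, those of Dcc, Epha5, Ephb3, Sema4c and Sema6d. For Ephb3 (33 bases) and Sema4c (23 bases) this is the only probe, so no other probe checks it. Both genes are counted among those higher on both arrays.

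**Figure D5:**
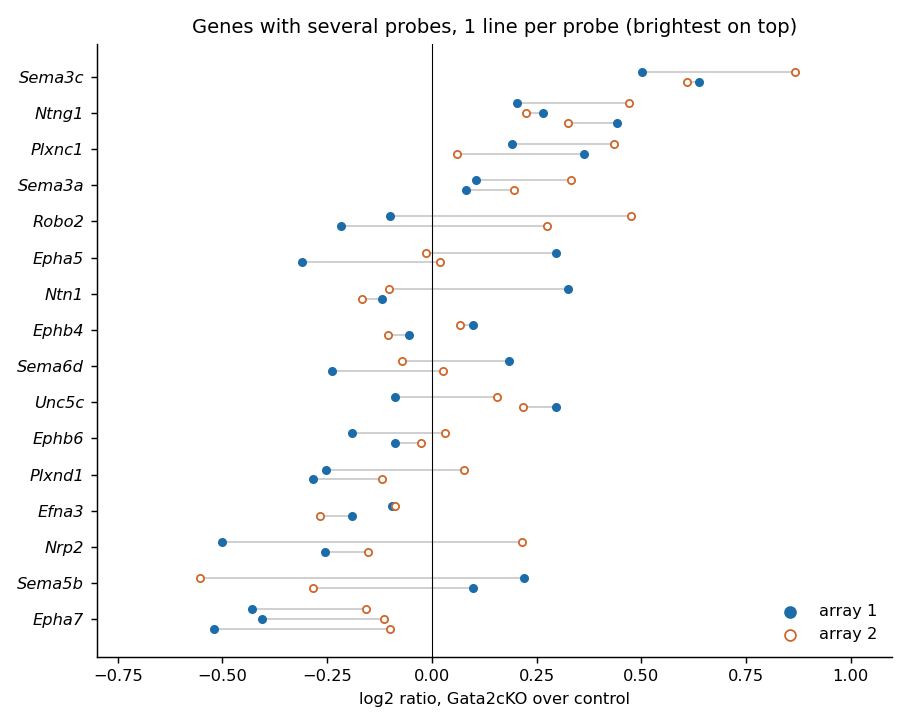
Log2 ratio of Gata2cKO over control (x axis) for every probe of the 16 guidance genes with several measured probes (rows, 1 line per probe with the brightest on top), with array 1 filled and array 2 open. All probes of Sema3c, Ntng1, Plxnc1 and Sema3a lie above 0 and all of Epha7 and Efna3 below it, while the others straddle it.

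Downstream of these receptors, a list of 64 co-receptors and intracellular partners was examined, and 59 were measured. None passed an adjusted p of 0.05 in limma, and at an unadjusted p under 0.05 there were 2 higher and 4 lower, beside the 3.75% and 3.41% of all genes. On both arrays 20 were higher (33.9%) and 13 lower (22%), with 26 of opposite signs (44.1%) and a median of 0.023. Over all genes these shares were 27%, 26.2% and 46.8%, with a median of 0.0028. Flrt2, which encodes a ligand of Unc5 receptors, had the largest ratio at 0.41 and 0.54 (0.48 ± 0.094, adjusted p = 0.32, with a range over the alternatives from 0.041 with the trended and robust prior to 0.9999 with median centring). Trim9, a ubiquitin ligase that binds Dcc, had 0.46 and 0.38 (0.42 ± 0.053, adjusted p = 0.38). Both were smaller when all probes of a gene were averaged, with means of 0.37 for Flrt2 and 0.28 for Trim9.

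The partners with the lowest ratios were Dpysl3 at -0.55 and -0.27 (adjusted p = 0.49) and Crmp1 at -0.38 and -0.36 (adjusted p = 0.45). Both belong to the collapsin response mediators, cytoplasmic proteins of neurons that act below semaphorin receptors. Of the same family on the list, Dpysl2 was higher on both arrays at 0.15 and 0.14. Dpysl4 had -0.034 and 0.23 and Dpysl5 had 0.27 and -0.17, each with opposite signs. Any relation of these genes to the neuron and glia markers given above was not tested. Of the 7 small GTPases on the list, 3 were higher on both arrays, with Rac1 at 0.056 and 0.088, Rhoa at 0.37 and 0.13 and Cdc42 at 0.059 and 0.30. The other 4 were lower on both, with Rras at -0.21 and -0.35, Rras2 at -0.057 and -0.53, Mras at -0.11 and -0.27 and Rnd3 at -0.19 and -0.12.

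Since Gata2 binds short motifs around GATA, the 250 bases before each transcription start in RefSeq (GRCm38.p6) were searched for AGATAA or AGATAG and for TGATAA or TGATAG on either strand. The table held 61 of the guidance genes, and 9 of them (14.8%) had a motif before at least 1 start, compared with 29.7% of all 27025 genes. Among the measured ones it was found in 2 of the 18 genes that were higher on both arrays, in 1 of 8 that were lower and in 6 of 29 with opposite signs. The 2 higher genes are Plxna2, with TGATAA, and Sema3a, with the reverse complement of AGATAG. Both windows are given here with the motif in capitals, at chr1:194619579-194619828 and chr5:13396534-13396783 on the plus strand of GRCm38.p6. A match is a description of the sequence and no sign of binding, and these windows for Epha8 and Sema3c held none of these letters.
Plxna2: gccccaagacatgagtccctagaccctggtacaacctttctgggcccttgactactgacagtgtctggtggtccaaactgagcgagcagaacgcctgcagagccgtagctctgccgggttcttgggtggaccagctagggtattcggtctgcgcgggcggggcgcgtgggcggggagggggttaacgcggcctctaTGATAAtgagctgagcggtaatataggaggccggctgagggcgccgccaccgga
Sema3a: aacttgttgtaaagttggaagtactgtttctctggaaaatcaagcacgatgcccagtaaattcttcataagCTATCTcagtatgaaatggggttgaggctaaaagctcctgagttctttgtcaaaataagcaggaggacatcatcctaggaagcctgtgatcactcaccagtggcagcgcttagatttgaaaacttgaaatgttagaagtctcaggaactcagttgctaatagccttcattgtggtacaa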

How the data were processed

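Total RNA of E14.5 ureters was amplified, coupled to Alexa Fluor 555 or 647 and hybridised to 2 dual-colour arrays, per the labels. The authors read them with Agilent Feature Extraction 10.7.3.1, per the submitters' processing notes. The deposited scanner files give mean spot signals and local backgrounds as linear intensity, not normalized, with other columns of flags and probe annotation on mm9, per the file headers. The authors' deposited table gives a signed fold as a score, of unstated making. Its direction was taken from its correlation with the scanner ratios (0.44 and 0.38), and it served as an alternative alone.

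Background was corrected by normexp (offset 50), ratios were loess-normalized within arrays (span 0.3, weight 0 for controls and outliers), the sign of array 2 was turned, and replicate spots were averaged. Probes well above background on both arrays in 1 group were kept, and the brightest stood for its gene, named through RefSeq accessions (GRCm38.p6; 26412 of 39429 probes matched). Ratios were tested against 0 by lmFit and eBayes of limma 3.58.1 (R 4.3.3), two-sided, adjusted by Benjamini-Hochberg over 20506 genes at 0.05, with 1 residual degree of freedom and a prior of 4.68. Signals per RNA are after loess and Aquantile. Both arrays lay on 1 slide, and their number limits the precision. The functions were tested on simulated data.

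The guidance genes, the partner and marker lists and the tests were chosen with earlier results of these data known. By rule, genes past the threshold, up to 2 higher and 2 lower per family with the largest smaller ratio, and 18 cues and receptors a reader looks for first were named, as were 4 partners. Epha1, Robo4, Sema3d, Sema4c, Sema5a, Sema5b, Sema7a, Slit1, Unc5a, Dpysl2, Dpysl4, Dpysl5, 7 small GTPases and the chromosomal neighbours were named after their values were seen.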

Additional observations from a re-analysis of the deposited data

Results flagged for a closer look

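The repeat probe that carries the name Dcc was set aside from the guidance genes because most of its bases are a GAA repeat, and a signal was nonetheless present there. It was well above background in both groups on both arrays, with log2 ratios of Gata2cKO over control of -0.096 on array 1 and 0.91 on array 2. The remaining Dcc probes were not well above background in either group.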

How the results depend on the processing

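With 2 arrays each gene's spread rests on 1 residual degree of freedom, so the calls follow the prior variance. The ratio within an array already pairs its RNAs, and no further block could be fitted. Over all genes, those past the threshold numbered 9 higher and 9 lower, but 0 and 0 with median centring and with the authors' deposited table, 66 and 99 with signals as processed by the scanner software, 2 and 1 without background correction, 18 and 36 with no detection filter and 167 and 209 with the trended and robust prior. The lower calls were 22 with detection required in both groups and 14 with the mean over probes. Guidance genes past the threshold were 1 higher with processed signals (Epha8) and 3 higher with the trended and robust prior (Epha8, Sema3c and Plxna2), where 1 partner passed too (Flrt2). With median centring 12 guidance genes were higher and 11 lower on both arrays, in place of 19 and 10. Counting all genes tested by the rule, Dcc and Unc50 included, an alternative chosen after seeing the data, left 19 higher and 11 lower on both arrays. From the authors' deposited table the family medians were 0.15 for semaphorins, 0.14 for plexins and neuropilins and 0.32 for netrins and their receptors. They were 0.29 for Slits and Robos and 0.079 for ephrins. The sign of the median turned for ephrins and for plexins and neuropilins. Of the genes named by rule with 1 direction on both arrays, 7 had a mean of the other sign in that table. They were Efna3 (0.0061), Epha7 (0.051), Ephb2 (0.019), Ephb4 (-0.080), Sema3g (0.14), Sema6b (0.16) and Dpysl3 (0.15). Of those with opposite signs, the mean also turned for Nrp2 (0.54), Plxnd1 (0.29) and Unc5b (0.038). Leaving out an array in turn gave ephrin medians of -0.071 to 0.086 and semaphorin medians of -0.0048 to 0.14. The cause of these changes was not tested.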
